A study of Mus musculus with 14 samples.

Results

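Hair follicle stem cells (HFSC) and epidermal stem cells (EpdSC) of aged mouse back skin were compared by RNA-seq at 24 months of age. The members were chosen by label and not by any measured value: 2 EpdSC and 2 HFSC libraries, 4 of the 14 samples in the series. Both populations came from the trypsin-digested back skin of female mice, whose strain the labels spell C57B8 in one field and C57B6 in another, and both were sorted as lineage-negative, integrin α6-high cells. HFSC were then the CD34+ and Sca1- cells, and EpdSC the CD34- and Sca1+ cells; no transgene or treatment is given in the labels. The 4 matching RNA-seq libraries of 2-month-old mice, sorted by the same gates, entered here as a second age, and 1 ATAC-seq library of each 24-month population gave a separate readout of open chromatin. The labels do not say whether the replicates came from separate animals, so every p-value measures the spread between these libraries, which may be technical.

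The follicle bulge holds stem cells that stay mostly at rest and rebuild the lower follicle in each hair cycle; WNT signals promote their activation, and BMP signals hold them at rest. Basal stem cells of the interfollicular epidermis instead divide throughout life to renew the cornified skin barrier. Both anchor to a basement membrane through integrins and hemidesmosomes, and both carry the keratins of basal epithelium.

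The aged libraries held 28292017 to 34181623 gene counts. The first HFSC library had a count in 34199 genes, against 27886 in the second HFSC library and 27547 and 29238 in EpdSC. Replicates correlated at r = 0.99 across genes in each population (log2 of CPM + 1), and libraries of different populations at 0.92. CPM (counts of a gene divided by the scaled library size) are the level used throughout. Parentheses after levels give the log2 fold change of EpdSC over HFSC, with ± its SE where a test follows. The SE was derived from the test, as the absolute log2 fold change divided by the square root of edgeR's F statistic. Genes of the mitochondrial genome took 15.71% and 15.93% of the counts in EpdSC and 19.59% and 19.44% in HFSC. In bulk libraries, fewer cells of a type and less RNA per cell cannot be told apart. The sort genes matched the labels. Cd34 (chromosome 1, 194938821 to 194961292, GRCm38.p6), the bulge surface antigen of the gate, stood at 0.34 and 0.586 CPM in EpdSC and 1088 and 1194 CPM in HFSC. Ly6a, which encodes Sca1, stood at 186 and 138 CPM in EpdSC and 1.51 and 1.97 CPM in HFSC. These differences follow from the sort and check the labels. Itga6, the integrin α6 chain that was gated high in both, stood at 1831 and 1616 CPM in EpdSC and 492 and 602 CPM in HFSC (1.66 ± 0.17, edgeR adjusted p = 2.19e-05).

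Of 21464 genes tested, 2628 were called higher in EpdSC and 2552 higher in HFSC at an edgeR quasi-likelihood adjusted p under 0.05, which is 12.2% and 11.9% of the genes tested. These shares are the background for the member counts that follow. All log2 fold changes are EpdSC over HFSC at 24 months unless another contrast is named, so a negative value is higher in HFSC. Their median over all genes tested was -0.09, and became 0.0 without the first HFSC library. Among the called genes, the HFSC side held the larger differences. Of the genes higher in HFSC, 1299 differed at least 4-fold and 498 at least 16-fold, with a median size of 2.04 on the log2 scale. Of the genes higher in EpdSC, 639 differed at least 4-fold and 146 at least 16-fold, with a median size of 1.14, and 1143 differed by less than 2-fold. In every called gene the 2 EpdSC libraries lay wholly to one side of the 2 HFSC libraries, as they did in 13436 of all 21464 genes.

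**Figure D1:**
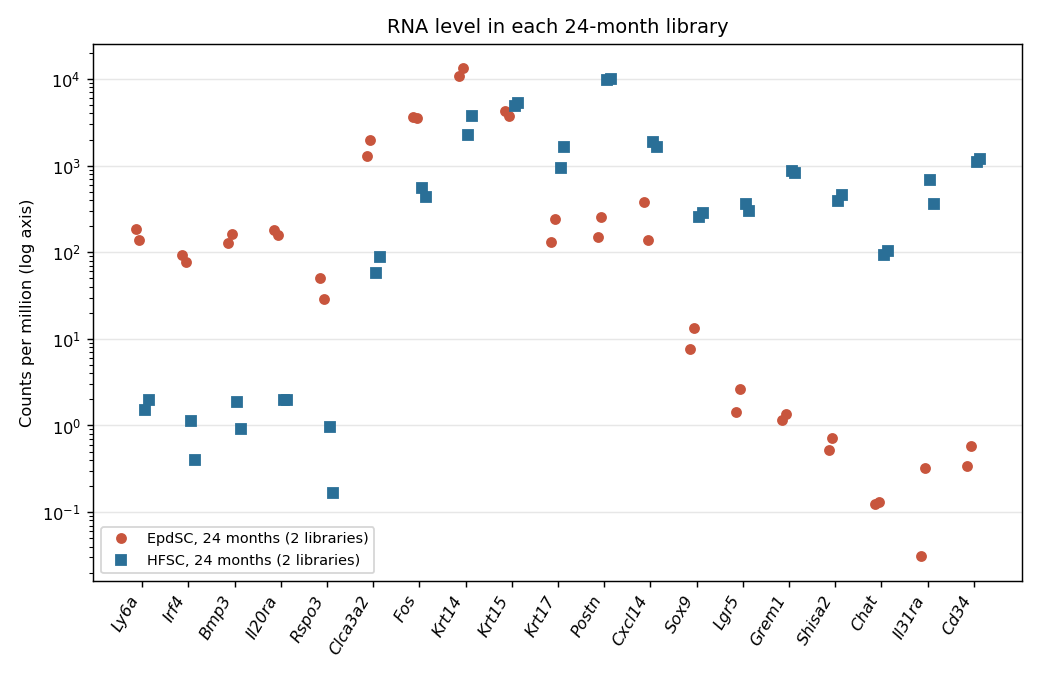
CPM (log axis) in each 24-month library for 19 genes; circles are the 2 EpdSC libraries and squares the 2 HFSC libraries. Krt15 lies at nearly the same level in all 4 libraries, whereas Cd34, Il31ra, Chat and Shisa2 lie above 90 CPM in HFSC and below 1 CPM in EpdSC.

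Beside the sort gene Cd34, the largest differences toward HFSC included a cytokine receptor, an enzyme of neurotransmitter synthesis and a secreted BMP antagonist. Il31ra, a subunit of the interleukin-31 receptor, stood at 0.0309 and 0.326 CPM in EpdSC and 681 and 356 CPM in HFSC (-11.50 ± 0.59, edgeR adjusted p = 1.17e-07). Both HFSC libraries lay far above both EpdSC libraries. Chat, the enzyme that makes acetylcholine, stood at 0.124 and 0.13 CPM in EpdSC and 94.1 and 102 CPM in HFSC (-9.55 ± 0.30, edgeR adjusted p = 9.24e-09). Shisa2, an endoplasmic reticulum protein that restrains WNT and FGF receptors, stood at 0.526 and 0.716 CPM in EpdSC and 389.8 and 464 CPM in HFSC (-9.42 ± 0.31, edgeR adjusted p = 1.14e-08). Grem1, a secreted BMP antagonist, stood at 1.14 and 1.37 CPM in EpdSC and 867 and 815 CPM in HFSC (-9.38 ± 0.21, edgeR adjusted p = 9.33e-10). Each of these was close to absent in both EpdSC libraries. Further genes of this size were Myoc (-9.24), Nrcam (-8.91), which encodes a neuronal adhesion molecule, Diras2 (-8.90), the WNT inhibitor Wif1 (-8.83) and the adenylyl cyclase Adcy1 (-8.78). Itm2a and the potassium channel Kcnk10 had 2 reads and 1 read over both EpdSC libraries. Their ratios over the group sums were 750-fold (95% counting interval 207 to 6200) and 491-fold (87.7 to 19400). Intervals of this kind cover counting error only.

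Among abundant genes at least 4-fold higher in HFSC, Postn, which encodes the matrix protein periostin, stood at 151 and 252 CPM in EpdSC and 9827 and 10036 CPM in HFSC (-5.62 ± 0.25, edgeR adjusted p = 5.14e-08). Others were Cxcl14 (-2.74), a chemokine, Mllt4 (-2.18), the actin-binding junction protein afadin, Col12a1 (-3.72) and Krt17 (-2.78). Cxcl14 varied between the EpdSC libraries, at 383 and 137 CPM, and both lay below the HFSC libraries, at 1851 and 1629 CPM.

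Toward EpdSC the largest differences included immune receptors and secreted growth regulators. Irf4, an interferon regulatory factor best known in lymphocytes, stood at 93.3 and 77.0 CPM in EpdSC and 1.14 and 0.395 CPM in HFSC (6.79 ± 0.33, edgeR adjusted p = 8.8e-08). Bmp3, a BMP family ligand that opposes other BMPs, stood at 129 and 165 CPM in EpdSC and 1.84 and 0.922 CPM in HFSC (6.73 ± 0.33, edgeR adjusted p = 8.77e-08). Il20ra, a receptor chain for interleukin-20 family cytokines, stood at 181 and 159 CPM in EpdSC and 1.95 and 1.97 CPM in HFSC (6.43 ± 0.19, edgeR adjusted p = 6.58e-09). In each case the HFSC libraries were under 2 CPM and the groups lay far apart. The soluble interleukin-22 binding protein Il22ra2 (6.07), the chemokine-scavenging receptor Ackr2 (6.63), the leukotriene receptor Cysltr1 (6.37), Adamts14 (6.72), a procollagen-processing protease, Cyp2w1 (6.18), Ppp2r2c (6.17), Cd83 (6.16) and Rspo3 (6.13), which encodes an R-spondin that amplifies WNT signals, were of like size. Abundant genes at least 4-fold higher in EpdSC were Krt14 (2.02), Fcgbp (2.55), which encodes a mucin-like protein, Clca3a2 (4.51), Fos (2.86), Fosb (2.44) and Dusp1 (3.58). Clca3a2, a member of a family of close copies whose reads may be split, stood at 1297 and 1992 CPM in EpdSC and 56.9 and 87.0 CPM in HFSC.

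The 300-base promoters of 3 of these genes are shown because their accessibility lay on the same side as their RNA (the ATAC-seq values stand near the end). Each runs from 250 bases before to 50 bases after the start site of its gene, 5′ to 3′ on the gene's strand, from RefSeq for GRCm38.p6, and capitals mark matches to the motifs searched there. Cd34 lies at chr1:194938571-194938870 on the plus strand and holds no match. Shisa2 lies at chr14:59625031-59625330 on the plus strand, with 1 TEAD match (GGAATG) that begins 236 bases before the start site. Il20ra lies at chr10:19712337-19712636 on the plus strand, with 1 AP-1 match (TGANTCA) that begins 164 bases before it.
Cd34: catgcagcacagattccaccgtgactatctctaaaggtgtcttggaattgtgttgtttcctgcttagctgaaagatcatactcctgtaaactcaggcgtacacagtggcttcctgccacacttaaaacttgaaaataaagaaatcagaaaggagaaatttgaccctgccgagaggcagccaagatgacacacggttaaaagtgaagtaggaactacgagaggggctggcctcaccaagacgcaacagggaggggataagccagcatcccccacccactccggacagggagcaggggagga
Shisa2: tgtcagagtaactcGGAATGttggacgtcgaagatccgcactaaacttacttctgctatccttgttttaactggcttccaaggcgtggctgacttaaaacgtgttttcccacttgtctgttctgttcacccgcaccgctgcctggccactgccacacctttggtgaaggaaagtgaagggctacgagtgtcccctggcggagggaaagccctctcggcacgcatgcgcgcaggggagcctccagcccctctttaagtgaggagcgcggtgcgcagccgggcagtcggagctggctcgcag
Il20ra: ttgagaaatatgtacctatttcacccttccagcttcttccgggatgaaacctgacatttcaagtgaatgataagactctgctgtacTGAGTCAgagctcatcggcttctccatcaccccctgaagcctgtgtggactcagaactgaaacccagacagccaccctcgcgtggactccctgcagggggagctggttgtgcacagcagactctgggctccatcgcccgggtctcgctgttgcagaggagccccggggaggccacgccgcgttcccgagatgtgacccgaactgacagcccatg

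Gene lists chosen for skin separated the populations to very different extents, as the plot of called shares by list shows. Toward EpdSC, the shares of the Hox, integrin, basement membrane, matrix, BMP and TGF-beta, cholesterol and fatty acid, glutathione, potassium channel, IGF and oxidative phosphorylation lists were at or below the background of 12.2%. Toward HFSC, those of the epidermal transcription factor, ErbB, junction, interferon, cytokine, Skint, Ly6, immediate early and cell cycle lists were below the background of 11.9%. Such counts are given for completeness. Many members had low levels. Below 5 CPM in all 4 libraries lay 30 of 44 potassium channel genes, 21 of 37 keratins and 20 of 33 cytokine genes. The same held for 19 of 37 interferon, 14 of 34 Hox and 11 of 22 FGF genes. In such lists the median rests in large part on genes of low level.

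**Figure D2:**
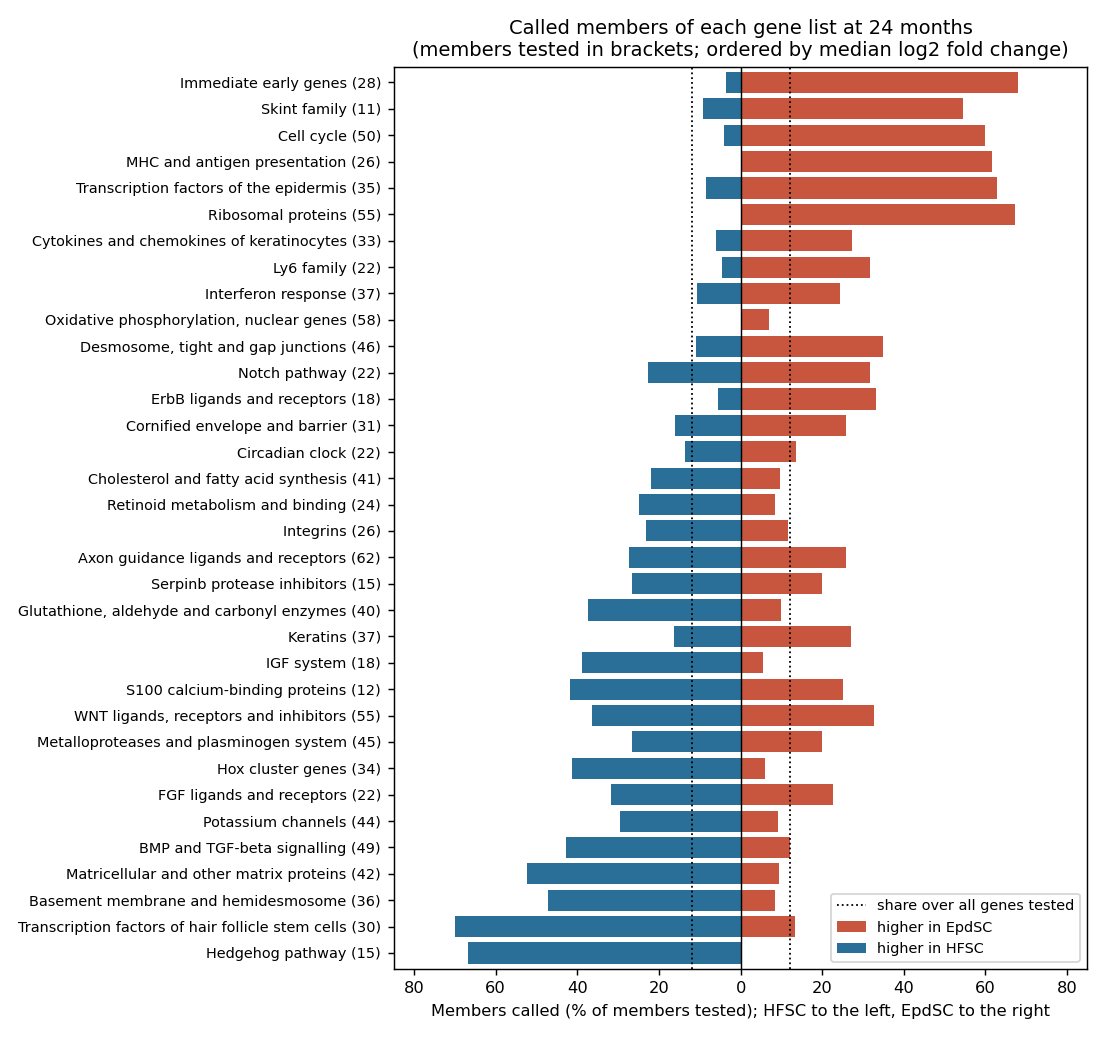
Members called in each of 34 gene lists, as a percentage of the members tested (number in brackets), to the left for higher in HFSC and to the right for higher in EpdSC; dotted lines mark the shares over all genes tested, 11.9% and 12.2%. Hedgehog genes and follicle transcription factors reach furthest to the left; immediate early and ribosomal protein genes reach furthest to the right.

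Transcription factors were listed by compartment, with earlier results of these data known. The side to which each list leaned is therefore not a separate finding. Of 30 transcription factors associated with follicle stem cells, 21 were called higher in HFSC and 4 in EpdSC, with a median of -1.75. Lhx2, a LIM-homeobox factor of the bulge, stood at 0.835 and 2.21 CPM in EpdSC and 399 and 355 CPM in HFSC (-7.96 ± 0.48, edgeR adjusted p = 3.54e-07). Sox9, which specifies follicle stem cells, stood at 7.70 and 13.2 CPM in EpdSC and 258 and 287 CPM in HFSC (-4.71 ± 0.24, edgeR adjusted p = 1.1e-07). Tbx1, a T-box factor of the bulge, had a log2 fold change of -7.19, the Hedgehog effector Gli2 -5.78 and the vitamin D receptor Vdr -2.39. The exceptions were Sox6, at 159 and 181 CPM in EpdSC and 4.83 and 3.52 CPM in HFSC (5.35 ± 0.30, edgeR adjusted p = 1.96e-07), Hlf (2.05), Nfia (0.88) and Sox4. Sox4 (1.30, edgeR adjusted p = 0.0432) lost its call without the first EpdSC library (1.05) and without the first HFSC library (0.76), and also with a filter of 1 CPM or with unscaled library sizes. Nfix, whose product helps to maintain bulge stem cells, lay at 312 and 310.3 CPM in EpdSC and 267 and 264 CPM in HFSC and was not called.

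Of 35 epidermal transcription factors, 22 were called higher in EpdSC and 3 in HFSC, with a median of 1.01. Klf5, a Krüppel-like factor of proliferating epithelium, stood at 292 and 295 CPM in EpdSC and 24.2 and 27.9 CPM in HFSC (3.49 ± 0.24, edgeR adjusted p = 9.97e-07). Tfap2c stood at 166 and 166 CPM in EpdSC and 10.3 and 17.0 CPM in HFSC (3.60 ± 0.25, edgeR adjusted p = 9.76e-07). The aryl hydrocarbon receptor gene Ahr (3.24), Foxq1 (4.28) and Pou2f3 (3.34) also lay wholly above HFSC. Higher in HFSC were Tfap2b (-2.15), Prdm1 (-2.92) and Dlx3 (-2.89). Trp63, the master regulator of stratified epithelium, stood at 1402 and 1231 CPM in EpdSC and 1033 and 1014 CPM in HFSC, and Grhl2 at 208 and 183 CPM in EpdSC and 159 and 158 CPM in HFSC; neither was called (edgeR adjusted p = 0.0802 and 0.253).

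Of 34 Hox genes tested out of 39 listed, 14 were called higher in HFSC and 2 in EpdSC, with a median of -1.06. The count of 14 was 9 without the second EpdSC library. Hoxc13, a regulator of hair keratins, stood at 0.649 and 1.27 CPM in EpdSC and 28.8 and 35.1 CPM in HFSC (-5.06 ± 0.31, edgeR adjusted p = 3.54e-07). Hoxc8 (-2.42), Hoxb9 (-2.82) and Hoxb6 (-1.86) followed. Hoxd4 had 2 reads over both EpdSC libraries and a ratio of 164 (95% counting interval 45.1 to 1360).

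Keratins were called in both directions. Of 37 keratins tested, 10 were called higher in EpdSC and 6 in HFSC, with a median of -0.60. The basal keratin Krt14 stood at 10982 and 13273 CPM in EpdSC and 2278 and 3703 CPM in HFSC (2.02 ± 0.22, edgeR adjusted p = 4.31e-05), and its partner Krt5 at 6858 and 6217 CPM in EpdSC and 3250.5 and 4167 CPM in HFSC (0.82 ± 0.15, edgeR adjusted p = 0.00221). Both were high in both populations and higher in EpdSC. Krt1 and Krt10, the keratin pair of cells that have left the basal layer, were also higher in EpdSC: Krt1 at 1272 and 1659.6 CPM in EpdSC and 60.6 and 76.8 CPM in HFSC (4.41) and Krt10 at 1193 and 1178 CPM in EpdSC and 115 and 143 CPM in HFSC (3.20). Krt15, a marker of the bulge and of basal epidermis, was the abundant keratin that did not separate them, at 4317 and 3694 CPM in EpdSC and 4831 and 5249 CPM in HFSC (-0.33 ± 0.18, edgeR adjusted p = 0.236). Other keratins ran toward HFSC, among them Krt75, Krt17 and Krt6a of the companion layer and inner bulge. Krt24 stood at 1.82 and 1.14 CPM in EpdSC and 255 and 168 CPM in HFSC (-7.15 ± 0.30, edgeR adjusted p = 4.25e-08), Krt75 at 0.278 and 0.358 CPM in EpdSC and 29.8 and 25.4 CPM in HFSC (-6.42) and Krt17 at 131 and 243 CPM in EpdSC and 941 and 1627 CPM in HFSC. Krt6a, whose reads may be shared with Krt6b, stood at 21.2 and 69.5 CPM in EpdSC and 324 and 691 CPM in HFSC (-3.48).

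The cornified envelope list was divided: of 31 genes tested, 8 were higher in EpdSC and 5 in HFSC, with a median of -0.008, which became 0.67 without the first EpdSC library. The count of 5 fell to 3 without the first EpdSC library and without the second HFSC library. The lipid transporter gene Abca12 stood at 160.2 and 181 CPM in EpdSC and 23.4 and 21.5 CPM in HFSC (2.93 ± 0.16, edgeR adjusted p = 2.08e-07), and Tgm3, an epidermal transglutaminase, at 21.0 and 39.0 CPM in EpdSC and 1.07 and 0.757 CPM in HFSC (5.03 ± 0.46, edgeR adjusted p = 9.34e-06). Cers3 (1.96) and Casp14 (2.74), which act in barrier lipid and filaggrin processing, and the envelope protein gene Ppl (1.16) were higher in EpdSC as well. A different transglutaminase gene, Tgm5, ran toward HFSC at 4.33 and 8.66 CPM in EpdSC and 791 and 1049.5 CPM in HFSC (-7.15 ± 0.44, edgeR adjusted p = 4.27e-07), as did Calml3, which encodes a calmodulin-like protein of keratinocytes, at 5.13 and 12.6 CPM in EpdSC and 417 and 674 CPM in HFSC (-5.95 ± 0.45, edgeR adjusted p = 2.11e-06). Beside these genes, 7 of 12 suprabasal markers were called higher in EpdSC and 1, Sbsn, in HFSC. Their summed level was 4478 and 4489 CPM in EpdSC and 445.5 and 537 CPM in HFSC. The late marker Flg was low everywhere, at 0.556 and 0.619 CPM in EpdSC and 1.54 and 1.55 CPM in HFSC, and was not called. The part of suprabasal cells in the difference was not tested.

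Of 26 integrins, 3 were higher in EpdSC and 6 in HFSC, with a median of -0.26; the share toward EpdSC, 11.5%, was near the background. Itga6, Itga3 (1.03) and Itga7 (2.67), all laminin-binding chains, were the 3 on the EpdSC side. Itgb8, which with αv activates latent TGF-beta, stood at 7.23 and 12.7 CPM in EpdSC and 175 and 204 CPM in HFSC (-4.25 ± 0.24, edgeR adjusted p = 2.48e-07). Itgb6, with the same partner, had -1.92, the collagen-binding Itga1 -3.06, and the fibronectin-binding Itga4 and Itga5 -4.42 and -1.22. Itgb4, the hemidesmosome chain, stood at 764 and 779 CPM in EpdSC and 625 and 686 CPM in HFSC, and was not called.

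The basement membrane list ran mainly toward HFSC, with 17 of 36 members higher there, 3 in EpdSC and a median of -1.65. Hmcn1, an extracellular matrix gene of the immunoglobulin superfamily, stood at 19.9 and 22.4 CPM in EpdSC and 1179 and 1234 CPM in HFSC (-5.83 ± 0.26, edgeR adjusted p = 6.03e-08). Fbln1, which encodes fibulin-1, stood at 2.44 and 5.50 CPM in EpdSC and 199 and 223 CPM in HFSC (-5.74 ± 0.31, edgeR adjusted p = 1.66e-07). The perlecan gene Hspg2 (-2.73), Sparc (-1.76) and Col18a1 (-1.94) were higher in HFSC by smaller folds. Lama1 ran the other way, at 151 and 142 CPM in EpdSC and 5.47 and 9.12 CPM in HFSC (4.33 ± 0.39, edgeR adjusted p = 7.94e-06), with Col4a6 (1.27). Col17a1, a hemidesmosome collagen, stood at 8904 and 9598 CPM in EpdSC and 7821 and 8774 CPM in HFSC and was not called (edgeR adjusted p = 0.457).

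Of 42 matricellular and other matrix genes tested, 22 were higher in HFSC and 4 in EpdSC, with a median of -1.57, which became -2.44 with a filter of 1 CPM. Col6a2 stood at 0.185 and 0.716 CPM in EpdSC and 151 and 181 CPM in HFSC (-8.53 ± 0.40, edgeR adjusted p = 6.95e-08). Ltbp2 stood at 1.24 and 2.64 CPM in EpdSC and 571 and 490.1 CPM in HFSC (-8.10 ± 0.39, edgeR adjusted p = 7.6e-08), and Ltbp1, which tethers latent TGF-beta, at 2.26 and 3.78 CPM in EpdSC and 77.8 and 76.9 CPM in HFSC (-4.68). The protease inhibitor gene Timp2 stood at 5.22 and 6.22 CPM in EpdSC and 436 and 395 CPM in HFSC (-6.18). All of these were low in both EpdSC libraries. Tnxb, which encodes tenascin-X, was the largest exception, at 607 and 683 CPM in EpdSC and 34.8 and 30.6 CPM in HFSC (4.30 ± 0.17, edgeR adjusted p = 2.52e-08), with Thbs2 (2.23), Col16a1 (1.81) and Cyr61 (1.25). Fibroblast markers, set beside these matrix genes, had 2 of 8 tested members called higher in HFSC and summed to 2.78 and 6.64 CPM in EpdSC and 85.35 and 52.69 CPM in HFSC. Col1a2 alone made up most of that sum, at 0.309 and 1.01 CPM in EpdSC and 75.6 and 44.5 CPM in HFSC. The other 7 tested markers lay below 5 CPM in all 4 libraries, Pdgfra at 0.866 and 0.521 CPM in EpdSC and 1.11 and 2.07 CPM in HFSC and Col3a1 at 0.402 and 0.423 CPM in EpdSC and 1.64 and 0.889 CPM in HFSC. The part of fibroblast RNA in the matrix genes was not tested.

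WNT genes were called in both directions. Of 55 tested, 18 were higher in EpdSC and 20 in HFSC, with a median of -0.84. That median became -0.044 without the first HFSC library and -0.33 with a filter of 1 CPM. Of the ligand genes called, Wnt5b (-1.20, uncalled without the first EpdSC or the second HFSC library, at -1.05 and -0.84) was higher in HFSC and the others higher in EpdSC. Wnt3 stood at 145 and 163 CPM in EpdSC and 3.62 and 1.61 CPM in HFSC (5.88 ± 0.33, edgeR adjusted p = 2.12e-07), Wnt3a at 47.5 and 51.2 CPM in EpdSC and 1.24 and 1.58 CPM in HFSC (5.12 ± 0.26, edgeR adjusted p = 1.1e-07) and Wnt16 at 34.3 and 18.9 CPM in EpdSC and 0.771 and 0.461 CPM in HFSC (5.42 ± 0.43, edgeR adjusted p = 2.7e-06). Wnt5a (3.50) and Wnt10a (2.73) followed. Receptor genes fell on both sides. Fzd10 stood at 192 and 147 CPM in EpdSC and 4.46 and 3.98 CPM in HFSC (5.33 ± 0.29, edgeR adjusted p = 1.6e-07), whereas Fzd2 stood at 7.82 and 11.0 CPM in EpdSC and 329 and 386 CPM in HFSC (-5.25 ± 0.23, edgeR adjusted p = 5.4e-08). Fzd3 (-4.05), Fzd7 (-4.10) and Fzd1 (-2.69) were also higher in HFSC. The secreted inhibitor genes called were higher in HFSC, with Sfrp1 at 47.8 and 43.2 CPM in EpdSC and 971 and 811 CPM in HFSC (-4.29 ± 0.20, edgeR adjusted p = 6.03e-08), Dkk3 at 15.8 and 14.0 CPM in EpdSC and 629 and 506 CPM in HFSC (-5.25) and Wif1 at 0 and 0.456 CPM in EpdSC and 75.4 and 130.5 CPM in HFSC. Genes of membrane proteins that remove WNT receptors, Kremen1 (0.85), Kremen2 (1.84), Znrf3 (0.96) and Rnf43 (0.93), ran toward EpdSC. The co-receptor gene Lrp5 was not called (138 and 148 CPM in EpdSC and 116 and 123 CPM in HFSC, edgeR adjusted p = 0.241).

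**Figure D3:**
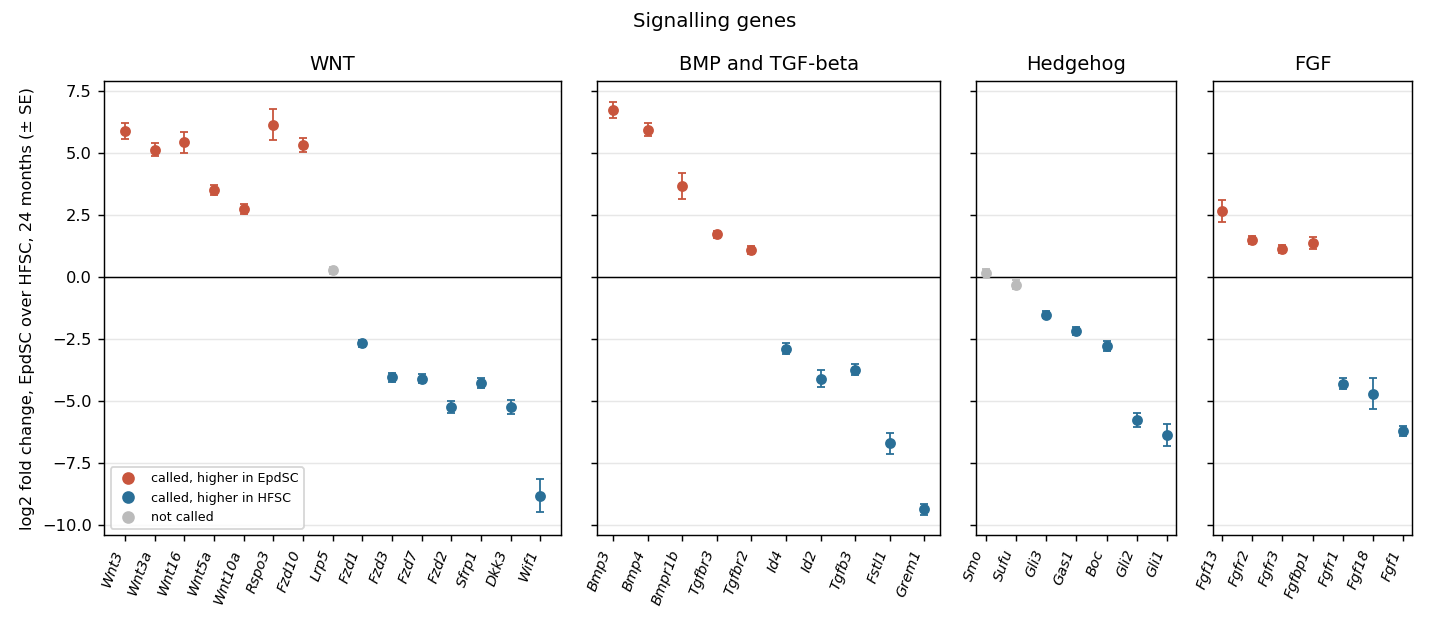
Log2 fold change of EpdSC over HFSC at 24 months (± SE derived from the edgeR F statistic) for named genes of 4 pathways. Red and blue points are called and grey points are not. The WNT and BMP ligand genes shown lie above 2.5 and the antagonist genes Wif1 and Grem1 lie near -9, while Lrp5 and Smo lie near 0. The ligand genes Wnt5b and Bmp6, called higher in HFSC, are not shown.

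In BMP and TGF-beta signalling, 21 of 49 genes tested were higher in HFSC and 6 in EpdSC, with a median of -1.29. That median became -0.61 without the first EpdSC library and -0.77 with a filter of 1 CPM. The ligand Bmp4 stood at 68.0 and 71.5 CPM in EpdSC and 1.41 and 0.889 CPM in HFSC (5.92 ± 0.26, edgeR adjusted p = 5.14e-08), on the same side as Bmp3. Ligand genes were not all on that side: Bmp6, one of the bulge markers, was called higher in HFSC. Bmpr1b (3.65), Tgfbr3 (1.71) and Tgfbr2 (1.09), all receptor genes, were higher in EpdSC. Opposite them in HFSC were the antagonist gene Grem1, the secreted activin-binding family member Fstl1, at 0.34 and 0.684 CPM in EpdSC and 52.6 and 55.7 CPM in HFSC (-6.72 ± 0.42, edgeR adjusted p = 4.24e-07), and Tgfb3, at 4.02 and 3.87 CPM in EpdSC and 50.8 and 56.0 CPM in HFSC (-3.76 ± 0.22, edgeR adjusted p = 2.76e-07). Id2 and Id4, transcribed in response to BMP signals, stood at 5.13 and 12.9 CPM in EpdSC and 167 and 143 CPM in HFSC (-4.11) and 7.05 and 10.9 CPM in EpdSC and 58.1 and 75.6 CPM in HFSC (-2.90).

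Of 15 Hedgehog genes, 10 were called higher in HFSC and 0 higher in EpdSC by edgeR and by DESeq2 (0 at an unadjusted p under 0.05), with a median of -2.09. Gli1, a direct target of the pathway, stood at 0.34 and 1.40 CPM in EpdSC and 82.2 and 62.1 CPM in HFSC (-6.38 ± 0.43, edgeR adjusted p = 8.34e-07), and Gli2 at 2.16 and 2.51 CPM in EpdSC and 154 and 102 CPM in HFSC. The co-receptor genes Boc and Gas1 stood at 81.8 and 92.6 CPM in EpdSC and 566 and 655 CPM in HFSC (-2.81) and 98.8 and 109.8 CPM in EpdSC and 462 and 493 CPM in HFSC (-2.19). Gli3 differed less (-1.52). Smo, the signal transducer, stood at 158 and 151 CPM in EpdSC and 126 and 153 CPM in HFSC and was not called.

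Of 22 FGF ligand, receptor and modulator genes tested, 7 were higher in HFSC and 5 in EpdSC, with a median of -1.12, which became -0.31 with a filter of 1 CPM. The 7 became 4 without the first EpdSC library. Fgfr1 stood at 18.8 and 31.7 CPM in EpdSC and 512 and 488 CPM in HFSC (-4.31 ± 0.24, edgeR adjusted p = 1.88e-07) and Fgfr2 at 721 and 614 CPM in EpdSC and 255 and 226 CPM in HFSC (1.47 ± 0.16, edgeR adjusted p = 3.16e-05), in opposite directions, with Fgfr3 (1.11) on the side of Fgfr2. The ligand gene Fgf1 stood at 2.16 and 2.21 CPM in EpdSC and 155 and 172 CPM in HFSC (-6.22 ± 0.19, edgeR adjusted p = 8.99e-09) and Fgf18, which holds bulge cells at rest, at 0.155 and 0.358 CPM in EpdSC and 6.71 and 6.85 CPM in HFSC (-4.71). Of 18 ErbB genes, 6 were higher in EpdSC and 1, Egfr (-0.71), in HFSC, with a median of -0.0066, which became 0.66 without the second HFSC library. Epgn, an EGF family ligand, stood at 52.8 and 52.7 CPM in EpdSC and 1.27 and 2.73 CPM in HFSC (4.71 ± 0.44, edgeR adjusted p = 1.15e-05). Erbb3 (1.87), Erbb2 (1.00), Hbegf (2.71) and Nrg2 (2.75) lay on the same side.

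Of 22 Notch genes tested, 7 were higher in EpdSC and 5 in HFSC. Their median of 0.02 became -0.08 with library sizes left unscaled, and the 5 became 3 without the first EpdSC library. The receptor genes Notch1, at 578 and 627 CPM in EpdSC and 243 and 247 CPM in HFSC (1.30 ± 0.18, edgeR adjusted p = 0.000244), and Notch3 (2.72) and the ligand genes Dll1 (2.31) and Jag2 (1.07) were higher in EpdSC. Jag1, the other Jagged ligand, was higher in HFSC at 188 and 193 CPM in EpdSC and 393 and 423 CPM in HFSC (-1.10 ± 0.13, edgeR adjusted p = 7.7e-05), with the nuclear effector gene Rbpj (-0.94) and its coactivator gene Maml2 (-2.05).

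Axon guidance genes were called in both directions, 16 of 62 toward EpdSC and 17 toward HFSC, with a median of -0.41. The 17 became 11 without the first EpdSC library or without the second HFSC library. Among the named genes, Robo1 stood at 164 and 168 CPM in EpdSC and 7.28 and 6.29 CPM in HFSC (4.61 ± 0.18, edgeR adjusted p = 2.96e-08) and Robo2 at 6.00 and 7.26 CPM in EpdSC and 71.1 and 93.0 CPM in HFSC (-3.63 ± 0.23, edgeR adjusted p = 5.64e-07). Sema3d stood at 281 and 192 CPM in EpdSC and 9.12 and 11.0 CPM in HFSC (4.56 ± 0.22, edgeR adjusted p = 7.32e-08) and Sema3e at 2.91 and 1.11 CPM in EpdSC and 497 and 373 CPM in HFSC (-7.75 ± 0.42, edgeR adjusted p = 1.78e-07). Sema3f (3.37) and Unc5b (0.98) lay with EpdSC, and Sema4g (-2.59), Sema6a (-3.93) and Efna5 (-1.71) with HFSC. Of 44 potassium channel genes tested, 13 were higher in HFSC and 4 in EpdSC, with a median of -1.24. As given above, 30 of the 44 lay below 5 CPM in all 4 libraries. Kcnk2 stood at 0.155 and 1.17 CPM in EpdSC and 51.5 and 36.7 CPM in HFSC (-6.07 ± 0.50, edgeR adjusted p = 4.02e-06), Kcnma1 had -4.71, and the inward rectifier gene Kcnj16 ran toward EpdSC (4.35).

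Nerve, glia and melanocyte markers were read beside these lists. Melanocyte markers summed to 16.01 and 20.38 CPM in EpdSC and 190.4 and 203.5 CPM in HFSC, with 4 of 9 tested members higher in HFSC. Mitf made up most of this at 11.5 and 13.3 CPM in EpdSC and 156 and 168 CPM in HFSC, and Dct, a pigment enzyme gene, stood at 0.742 and 1.04 CPM in EpdSC and 16.9 and 17.1 CPM in HFSC (-4.25 ± 0.36, edgeR adjusted p = 5.06e-06). The markers Mlana and Sox10 stood at 0.0927 and 0.0651 CPM in EpdSC and 0.503 and 0.724 CPM in HFSC and 0.495 and 0.26 CPM in EpdSC and 0.973 and 1.71 CPM in HFSC and were not called. Over the 9 melanocyte markers tested the median was -2.41, and 0 had a log2 fold change above 0. Of 8 nerve and glia markers, Ngfr (105 and 87.1 CPM in EpdSC and 13.4 and 10.5 CPM in HFSC) and Mbp (103 and 110.1 CPM in EpdSC and 15.7 and 17.4 CPM in HFSC) were higher in EpdSC and 2 markers, Ncam1 among them, in HFSC, and 6 lay below 5 CPM in all 4 libraries. The part of these cells in the differences was not tested.

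Junction genes ran mainly toward EpdSC, with 16 of 46 higher there and 5 in HFSC, and a median of 0.21. The 5 became 3 without the second EpdSC library. Dsg1a, a desmosomal cadherin gene whose close copies may share reads, stood at 1512 and 1147 CPM in EpdSC and 90.2 and 98.4 CPM in HFSC (3.82 ± 0.25, edgeR adjusted p = 5.74e-07), and Pkp1, a desmosomal plaque gene, at 1556 and 1548 CPM in EpdSC and 389.8 and 540.4 CPM in HFSC (1.74 ± 0.18, edgeR adjusted p = 2.32e-05). Cdh4, the R-cadherin gene, stood at 153 and 108 CPM in EpdSC and 3.35 and 3.65 CPM in HFSC (5.22 ± 0.21, edgeR adjusted p = 3.35e-08). The tight junction genes Cldn8 (-2.49) and Cldn10 (-3.01) and the gap junction gene Gjb2 (-3.07) were higher in HFSC. Dsp, the desmoplakin gene, stood at 6835 and 6049.9 CPM in EpdSC and 5216 and 5155 CPM in HFSC and was not called.

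Genes of antigen presentation ran toward EpdSC. Of 26 tested, 16 were higher in EpdSC and 0 in HFSC by edgeR and by DESeq2 (1 toward HFSC at an unadjusted p under 0.05). The median was 1.06, and became 0.81 without the first HFSC library and 1.57 without the second. Summed levels were 5512 and 5380 CPM in EpdSC and 1665 and 3213 CPM in HFSC, so the HFSC libraries differed. At 2 months 20 were higher in EpdSC and 0 in HFSC, with a median of 2.38. Of all genes tested, the test of the difference between ages, given below, called 1, Ly6e. Nlrc5, the transactivator of class I genes, stood at 242 and 218 CPM in EpdSC and 35.4 and 56.6 CPM in HFSC (2.32 ± 0.20, edgeR adjusted p = 6.57e-06), and the immunoproteasome gene Psmb8 at 43.0 and 50.9 CPM in EpdSC and 8.65 and 17.9 CPM in HFSC (1.82 ± 0.28, edgeR adjusted p = 0.000548). H2-Q7 (1.98), H2-Q4 (1.43) and H2-T22 (1.00) belong to families of close copies, so reads may be split among them. H2-T23 did not follow, at 115 and 90.8 CPM in EpdSC and 115 and 136 CPM in HFSC. Of 9 Langerhans and myeloid markers, edgeR called 0 in either direction (1 toward EpdSC and 1 toward HFSC at an unadjusted p under 0.05), and DESeq2 called 1 in each. Cd207 stood at 0.68 and 0.912 CPM in EpdSC and 0.201 and 0.461 CPM in HFSC. Their sum was 143.9 and 128.6 CPM in EpdSC and 176.9 and 244.7 CPM in HFSC, mostly from Epcam, and 7 of the 9 lay below 5 CPM in all 4 libraries.

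Of 33 keratinocyte cytokine and chemokine genes tested, 9 were higher in EpdSC and 2 in HFSC, with a median of 0.47. The alarmin gene Il33 stood at 347 and 232 CPM in EpdSC and 6.81 and 7.67 CPM in HFSC (5.32 ± 0.23, edgeR adjusted p = 4.74e-08). Il1rn, the interleukin-1 receptor antagonist gene, stood at 152 and 141 CPM in EpdSC and 3.25 and 9.22 CPM in HFSC (4.55 ± 0.36, edgeR adjusted p = 3.05e-06), and Il34, which sustains Langerhans cells, at 80.9 and 63.9 CPM in EpdSC and 8.35 and 8.33 CPM in HFSC (3.12 ± 0.19, edgeR adjusted p = 3.46e-07). Ccl20 had 231 reads in EpdSC and 2 in HFSC, a ratio of 110 (95% counting interval 30.2 to 916). The 2 chemokine genes higher in HFSC were Cxcl12, at 11.0 and 14.4 CPM in EpdSC and 185 and 116 CPM in HFSC (-3.57 ± 0.29, edgeR adjusted p = 3.72e-06), and Cxcl14. Of 37 interferon response genes, 9 were higher in EpdSC and 4 in HFSC, with a median of 0.34. The 9 became 3 without the first EpdSC library and 5 without the first HFSC library, and the 4 became 2 without the first EpdSC library. Ifitm3 stood at 114 and 111 CPM in EpdSC and 36.3 and 61.3 CPM in HFSC (1.21 ± 0.25, edgeR adjusted p = 0.00408), and Gbp7 ran toward HFSC at 7.36 and 8.37 CPM in EpdSC and 23.5 and 24.7 CPM in HFSC (-1.62).

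The Skint genes, an epidermal family whose members are close copies of each other, were mostly higher in EpdSC: 6 of 11, with 1 higher in HFSC and a median of 1.51. Skint7 stood at 88.1 and 87.2 CPM in EpdSC and 2.28 and 1.45 CPM in HFSC (5.55 ± 0.31, edgeR adjusted p = 1.93e-07) and Skint1 at 145 and 132 CPM in EpdSC and 5.37 and 7.64 CPM in HFSC (4.41 ± 0.26, edgeR adjusted p = 3.04e-07). Skint4 ran the other way at 33.4 and 41.2 CPM in EpdSC and 86.7 and 110.4 CPM in HFSC (-1.40 ± 0.19, edgeR adjusted p = 0.000207). Of 22 genes of the Ly6 family, 7, the sort gene Ly6a among them, were higher in EpdSC and 1, Lypd6 (-4.19), in HFSC, with a median of 0.38. Ly6d stood at 838 and 901 CPM in EpdSC and 39.5 and 54.8 CPM in HFSC (4.21 ± 0.29, edgeR adjusted p = 9.97e-07) and Ly6c1 had 5.83. T cell markers were near 0 apart from Thy1, at 76.9 and 84.9 CPM in EpdSC and 4.56 and 2.76 CPM in HFSC; the other 6 tested lay below 5 CPM in all 4 libraries.

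Immediate early genes, which respond within minutes to growth factors and stress, were called higher in EpdSC in 19 of 28 cases and in HFSC in 1, with a median of 1.66. Fos stood at 3638 and 3515 CPM in EpdSC and 551 and 431 CPM in HFSC (2.86 ± 0.34, edgeR adjusted p = 6.7e-05), Junb at 1258 and 1186 CPM in EpdSC and 168 and 145 CPM in HFSC (2.97 ± 0.19, edgeR adjusted p = 5.25e-07) and Dusp1 at 1581 and 1681 CPM in EpdSC and 155 and 118 CPM in HFSC (3.58 ± 0.20, edgeR adjusted p = 2.45e-07). Zfp36 (3.26), Fosb, Arc (4.40) and Jund (1.73) followed. In each the EpdSC libraries lay wholly above the HFSC libraries. At 2 months 18 were higher in EpdSC and 3 in HFSC.

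Cell cycle genes ran the same way: 30 of 50 were higher in EpdSC and 2 in HFSC, with a median of 1.11. The 30 became 19 without the second HFSC library. Ccnd2 stood at 401 and 628 CPM in EpdSC and 68.1 and 132 CPM in HFSC (2.36 ± 0.35, edgeR adjusted p = 0.000358) and Cdk6 at 144 and 127 CPM in EpdSC and 60.9 and 77.0 CPM in HFSC (0.98 ± 0.16, edgeR adjusted p = 0.000746). The cell cycle inhibitor gene Cdkn1a was also higher in EpdSC, at 55.9 and 46.0 CPM in EpdSC and 7.71 and 9.78 CPM in HFSC (2.54 ± 0.25, edgeR adjusted p = 1.76e-05), and the inhibitor gene Cdkn1c higher in HFSC (-3.21). Of 10 markers of dividing cells, 9 were higher in EpdSC; this became 3 without the first EpdSC library and 4 without the second HFSC library. Mki67 stood at 437 and 307 CPM in EpdSC and 174 and 76.8 CPM in HFSC (1.57 ± 0.33, edgeR adjusted p = 0.00475). The first library of each population was the higher, and the groups did not overlap.

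Ribosomal protein genes, many of which share reads with pseudogenes, were called higher in EpdSC in 37 of 55 cases and in HFSC in 0 by edgeR and by DESeq2 (0 toward HFSC at an unadjusted p under 0.05), with a median of 0.54. The 37 became 20 and 24 without the first or second EpdSC library and 11 without the first HFSC library. Rplp0 stood at 1538 and 1599 CPM in EpdSC and 642 and 801 CPM in HFSC (1.12 ± 0.16, edgeR adjusted p = 0.00024) and Rps9 at 719.5 and 709 CPM in EpdSC and 393 and 459 CPM in HFSC (0.75 ± 0.15, edgeR adjusted p = 0.00265). Nuclear genes of oxidative phosphorylation were called toward EpdSC in 4 of 58 cases, below the background share, and toward HFSC in 0 by edgeR and by DESeq2 (1 at an unadjusted p under 0.05), with a median of 0.22. That count moved between 0 (without the first HFSC library) and 19 (without the second HFSC library), and was 2 and 1 without the first and second EpdSC library.

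Of 41 genes that build cholesterol or fatty acids, 4 were higher in EpdSC and 9 in HFSC, with a median of -0.15; the share toward EpdSC, 9.76%, was below the background. Without the second HFSC library these counts were 9 and 5, and the 9 became 5 without the second EpdSC library. Acsl1 stood at 208 and 198 CPM in EpdSC and 35.2 and 35.0 CPM in HFSC (2.53 ± 0.16, edgeR adjusted p = 3.97e-07) and Hmgcs1, an early enzyme of cholesterol synthesis, at 445 and 359 CPM in EpdSC and 113 and 131 CPM in HFSC (1.72). The desaturase gene Fads1 stood at 3.00 and 3.52 CPM in EpdSC and 36.7 and 42.7 CPM in HFSC (-3.61 ± 0.22, edgeR adjusted p = 3.54e-07). Of 40 glutathione, aldehyde and carbonyl enzyme genes, 15 were higher in HFSC and 4 in EpdSC, with a median of -0.60. Gclm, the modifier subunit of glutathione synthesis, stood at 8.04 and 7.88 CPM in EpdSC and 44.9 and 63.1 CPM in HFSC (-2.76 ± 0.24, edgeR adjusted p = 5.98e-06). Gstm5 (-2.42) and Mgst1 (-2.61) followed, and Aldh3b2 ran toward EpdSC at 63.4 and 68.2 CPM in EpdSC and 6.87 and 7.47 CPM in HFSC (3.20 ± 0.32, edgeR adjusted p = 2.06e-05). Sebaceous gland markers ran toward HFSC in 8 of 14 cases, with Soat1 at 2.35 and 1.24 CPM in EpdSC and 19.9 and 28.4 CPM in HFSC and Pparg at 0.0927 and 0.586 CPM in EpdSC and 3.42 and 4.41 CPM in HFSC, and toward EpdSC in 1. The 14 markers summed to 606.7 and 385.5 CPM in EpdSC and 452.4 and 580.9 CPM in HFSC. Of these markers, 7 lay below 5 CPM in all 4 libraries, Pparg among them. The part of sebaceous cells in the metabolic lists was not tested.

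Of 18 IGF system genes, 7 were higher in HFSC and 1 in EpdSC, with a median of -0.70. The exception was Igfbp3, at 784 and 937 CPM in EpdSC and 115 and 123 CPM in HFSC (2.85 ± 0.39, edgeR adjusted p = 0.000193). Igfbp6 stood at 0.155 and 0.456 CPM in EpdSC and 26.9 and 25.3 CPM in HFSC (-6.41 ± 0.42, edgeR adjusted p = 6.47e-07), Igfbp4 at 7.17 and 17.3 CPM in EpdSC and 121 and 121 CPM in HFSC (-3.31) and Pappa, a protease that cleaves IGF-binding proteins, at 4.27 and 10.4 CPM in EpdSC and 90.2 and 69.9 CPM in HFSC (-3.45). Of 45 genes of metalloproteases and the plasminogen system, 9 were higher in EpdSC and 12 in HFSC, with a median of -0.95, which ranged from -0.40 without the first EpdSC library to -1.73 without the second. Mmp28, an epidermal metalloprotease gene, stood at 73.7 and 64.7 CPM in EpdSC and 1.61 and 1.22 CPM in HFSC (5.61 ± 0.28, edgeR adjusted p = 8.77e-08), and Adamtsl4 at 12.9 and 11.8 CPM in EpdSC and 212 and 194 CPM in HFSC (-4.03 ± 0.15, edgeR adjusted p = 2.23e-08). Plau, the urokinase gene, lay toward EpdSC (1.64). Serpinb2 and Serpinb7 stood at 1198 and 1046 CPM in EpdSC and 58.8 and 99.1 CPM in HFSC (3.83) and 169 and 172 CPM in EpdSC and 4.36 and 5.56 CPM in HFSC (5.10), while Serpinb11 stood at 0.835 and 4.56 CPM in EpdSC and 275 and 451 CPM in HFSC (-7.08 ± 0.57, edgeR adjusted p = 3.39e-06). S100a4 (-4.89) and S100a6 (-1.65) were higher in HFSC and S100a14 (1.62) in EpdSC.

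Marker sets of the sorted populations were counted without the gate genes Cd34 and Ly6a. Of 19 bulge markers, 18 were higher in HFSC, with a median of -4.71; the exception was Krt15. Of 9 hair germ markers tested, 8 were higher in HFSC, including Lgr5 at 1.42 and 2.67 CPM in EpdSC and 360.5 and 298 CPM in HFSC (-7.33 ± 0.41, edgeR adjusted p = 2.08e-07), and Cdh3 was not called. Of 15 basal interfollicular markers, 13 were higher in EpdSC and 1 in HFSC, with a median of 2.02; Gata3, an epidermal factor, stood at 377 and 358 CPM in EpdSC and 67.8 and 90.2 CPM in HFSC. All 8 endothelial markers tested, of which 2 were called higher in HFSC, lay below 5 CPM in all 4 libraries, and those of pericytes and smooth muscle summed to 129.3 and 103.1 CPM in EpdSC and 670 and 711.7 CPM in HFSC, almost all of it Cspg4 (114 and 86.3 CPM in EpdSC and 640.0 and 641 CPM in HFSC).

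The same contrast at 2 months called 2788 genes higher in EpdSC and 2812 higher in HFSC, which is 13.0% and 13.1% of the genes tested. Of the genes called at 24 months, 2178 were called toward EpdSC and 2108 toward HFSC at 2 months too. That is 82.9% and 82.6% of the 24-month calls, and 78.1% and 75.0% of the 2-month calls. No gene higher in EpdSC at 24 months was called the other way at 2 months, and 1 gene higher in HFSC was. That gene was Timp3, chosen after its values were seen, at 40.4 and 49.97 CPM in EpdSC and 69.2 and 107 CPM in HFSC at 24 months (-0.96 ± 0.21, edgeR adjusted p = 0.00552) and 34.1 and 37.8 CPM in EpdSC and 24.0 and 19.98 CPM in HFSC at 2 months (log2 fold change 0.71, edgeR adjusted p = 0.0294). Its 24-month call was lost without the first EpdSC library and without the second HFSC library (edgeR adjusted p = 0.0769 and 0.0931), and its difference between ages was not called.

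**Figure D4:**
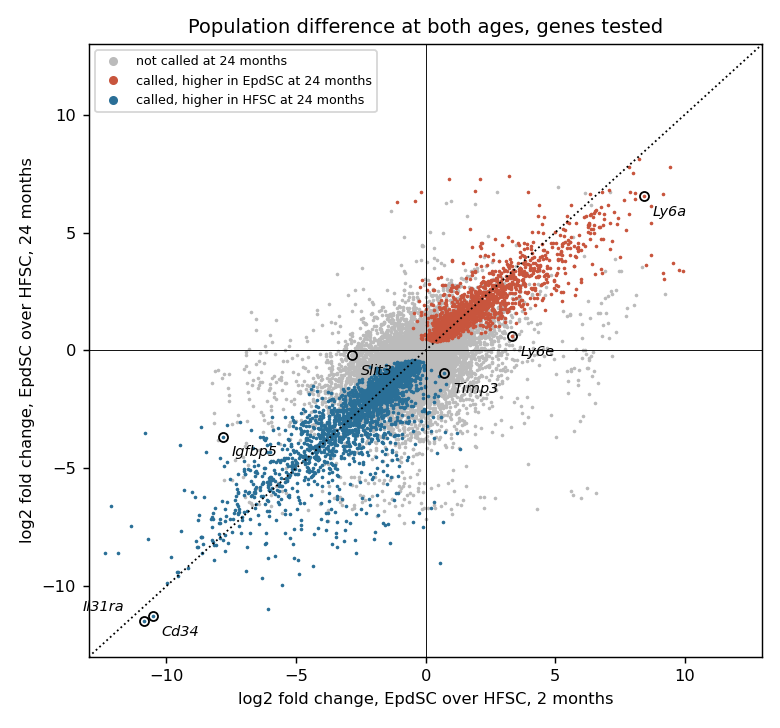
Log2 fold change of EpdSC over HFSC for each gene tested, at 2 months (horizontal axis) and 24 months (vertical axis); points are coloured by the 24-month call, circles mark 7 named genes and the dotted line marks equal values. Ly6e lies at 3.32 on the horizontal and 0.63 on the vertical axis.

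The difference of the population contrasts between ages was tested directly, and 1 gene of 21464 (0.00466%) was called, with 980 at an unadjusted p under 0.05. The number 980 is no larger than a threshold of 0.05 would pass among 21464 genes without any difference. Ly6e, a Ly6 family gene induced by interferon, stood at 24 months at 122 and 116 CPM in EpdSC and 62.5 and 91.9 CPM in HFSC and at 2 months at 100.4 and 81.3 CPM in EpdSC and 9.35 and 8.81 CPM in HFSC. The population difference was thus 0.63 at 24 months and 3.32 at 2 months, both toward EpdSC, and the difference between them was -2.70 (SE 0.27, edgeR adjusted p = 0.0144). Leaving out the second aged EpdSC library ended that call (-2.65, edgeR adjusted p = 0.0949). The 24-month difference alone was no longer called without the first EpdSC library, the second EpdSC library or the first HFSC library (0.61, 0.70 and 0.38, edgeR adjusted p = 0.129, 0.0653 and 0.242). DESeq2 called 94 genes, and edgeR without a filter on low counts called 285. The genes next in order were Slit3 (2.65), Igfbp5 (4.17), Dpyd (2.11), Emb (-1.69) and Gpnmb (2.24), each at an edgeR adjusted p of 0.102. DESeq2 called all 5 (adjusted p from 6e-08 for Slit3 to 0.000486 for Igfbp5), as did edgeR with no filter on low counts, without the first aged HFSC library and without the second young HFSC library. Igfbp5 stood at 9.09 and 15.6 CPM in EpdSC and 176 and 136 CPM in HFSC at 24 months and 1.65 and 0.921 CPM in EpdSC and 173 and 416 CPM in HFSC at 2 months.

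ATAC-seq, which counts transposase insertions in open chromatin, was read at the same promoters at 24 months. With 1 library per population there was no test, and the libraries differed in depth, with 22934060 counts in EpdSC and 8243922 in HFSC. Over 12275 genes with at least 20 counts within 1000 bases of the start site, the median log2 ratio of promoter CPM was 0.98, the level against which the following medians of the same ratio are read. Genes called higher in EpdSC had a median of 1.25, and 70.7% of 1938 lay above the median of all genes. Genes called higher in HFSC had a median of 0.61, and 25.8% of 1683 lay above it. Among genes called with at least 4-fold difference, these medians were 1.91 (88.1% of 404 above) and 0.13 (14.0% of 773 above). Across the 12275 genes, RNA and promoter log2 ratios correlated at r = 0.49, a description over genes that share 2 libraries.

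**Figure D5:**
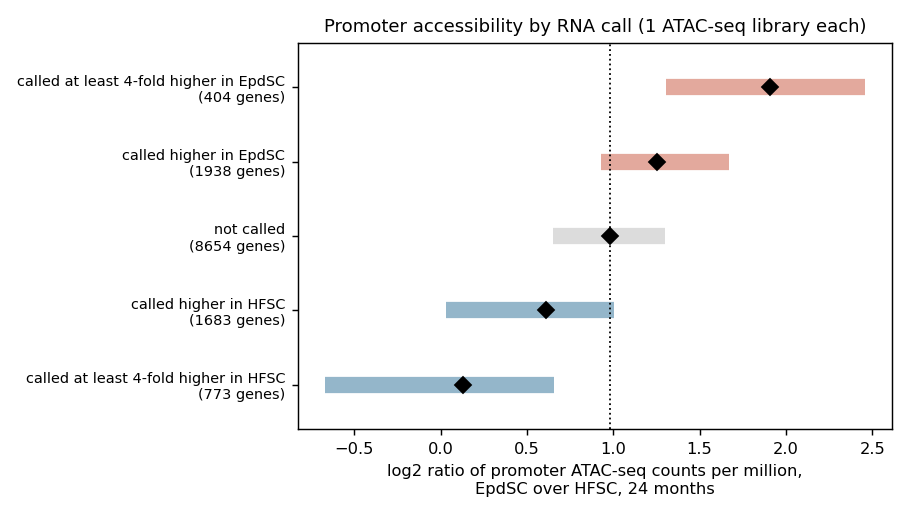
Promoter accessibility at 24 months, as the log2 ratio of ATAC-seq CPM in EpdSC over HFSC (1 library each), by RNA call; diamonds are medians, bars span the lower to the upper quartile, and the dotted line is the median of all genes, 0.98. The medians run in order from 0.13 for genes at least 4-fold higher in HFSC to 1.91 for genes at least 4-fold higher in EpdSC.

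At single promoters, Cd34 had 17 counts in EpdSC and 68 in HFSC, a log2 ratio of -3.42 (95% counting interval -4.34 to -2.69) or -4.40 relative to all genes. Shisa2 had 41 and 142 counts (-4.23 relative to all genes), Tbx1 38 and 136 (-4.27) and Grem1 56 and 122 (-3.56). For these 4 promoters the ratio of EpdSC over HFSC lay below the median ratio of all genes, on the side of their RNA. Toward EpdSC, Wnt16 had 387 and 8 counts (3.10 relative to all genes), Bmp4 601 and 18 (2.59), Sox6 233 and 7 (2.55), Il20ra 372 and 21 (1.68) and Clca3a2 324 and 22 (1.41). Other promoters did not follow the RNA. Krt14 (0.03), Fcgbp (0.12) and Fzd7 (0.03) had ratios near the all-gene median beside their RNA differences. Mllt4, higher in HFSC in RNA, had 453 and 58 counts (0.51). Ackr2, higher in EpdSC in RNA, had only 13 and 11 counts (-2.17 relative to all genes). Its log2 ratio itself was -1.19 (95% counting interval -2.51 to 0.07), so its side is uncertain.

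Motif matches in the 300-base promoters were counted on both strands for 13760 tested genes with a promoter entry, as a description. The AP-1 motif TGANTCA occurred in 5.57% of all of them, in 9.13% of 427 promoters of genes at least 4-fold higher in EpdSC and in 4.86% of 843 promoters of genes at least 4-fold higher in HFSC. The FOX motif TGTTTAC occurred in 2.63%, 4.45% and 2.73%, and the LHX motif TAATTA in 2.98%, 4.92% and 2.73%. The AP-1 and LHX motifs read alike on both strands and were counted once. The GATA motif AGATAA occurred in 6.97%, 8.2% and 5.93%. The SOX motif ACAATG (7.78%, 7.26% and 8.19%), the TEAD motif GGAATG (12.6%, 12.4% and 13.9%), the TCF motif CTTTGA (12.7%, 12.9% and 11.4%) and the KLF motif CCACACCC (3.82%, 4.45% and 3.32%) are given in the same order. The NFI and p53 family motifs were rare, in 0.0291% and 0.356% of all promoters.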

How the data were processed

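Per the labels' protocols, total RNA of sorted cells was made into TruSeq libraries and sequenced in paired ends. STAR, Bowtie, Cell Ranger and the genome build mm10 appear, with no roles stated, in the submitters' processing notes. The strand setting and the annotation release were not given in the sources used here. The deposited RNA files hold the authors' raw counts per gene, and the deposited ATAC-seq files hold counts per 500-base window. Of 47729 genes in the table, 40448 had a count and 21464 passed edgeR's expression filter. All 8 RNA-seq libraries of both ages and populations entered one edgeR 4.0.16 quasi-likelihood fit (R 4.3.3) with TMM scaling, 4 residual degrees of freedom and a common biological coefficient of variation of 0.277. Calls needed a Benjamini-Hochberg adjusted p under 0.05. The fit was tested on simulated data with 20107 genes tested. It called 45 of 100 genes changed 2-fold and 84 of 100 changed 4-fold, with 7 false calls. A gene that was not called may therefore still differ.

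The gene lists with their member genes, and the promoters shown, were chosen with earlier results of these data known. Named were the sort markers, in each direction up to 12 called genes with the largest change and up to 6 of the highest level at least 4-fold different, for each list up to 5 called members per direction with the smallest p and up to 2 uncalled members of the highest level, and 6 genes for the difference between ages. Predicted genes, pseudogenes and antisense names were left out, as were genes under 5 CPM in the higher group for the largest changes. Bmp6, Cd207, Col3a1, Flg, Kremen1, Kremen2, Mlana, Pparg, Rnf43, Wnt5b, Znrf3 and Timp3 were chosen after their values were seen. Promoter counts were summed over windows centred within 1000 bases of the start site, with a pseudocount of 0.5. Promoters came from RefSeq for GRCm38.p6, which held 13760 of the tested genes. Alternatives used DESeq2 1.42.0, other filters and scalings, a replicate block, and each library left out in turn. Some genes that the naming rule gives, and 1 promoter, are not reported here.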

Additional observations from a re-analysis of the deposited data

Results flagged for a closer look

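Ly6e was the gene whose population difference differed between ages by the test of that difference. Its log2 fold change of EpdSC over HFSC was 0.63 at 24 months and 3.32 at 2 months, a difference of -2.70 (edgeR adjusted p = 0.0144, 2 libraries per group). Both HFSC libraries of 24 months lay above both of 2 months. The call was not kept without the second aged EpdSC library, where the difference was -2.65 (edgeR adjusted p = 0.0949). The labels do not say whether the libraries of each age were made together, so age and preparation cannot be told apart.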

How the results depend on the processing

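Across 15 alternatives, 1784 to 3007 genes were called higher in EpdSC and 1822 to 2857 higher in HFSC, within 1.5 times the counts reported, and 0 reported calls became calls in the opposite direction. Leaving out 1 library in turn gave 1784 to 3007 genes higher in EpdSC and 1822 to 2520 higher in HFSC. With library sizes left unscaled, 44.6% of calls lay in EpdSC, against 50.7% as reported. The number of genes whose population difference differed between ages was 1 as reported, 94 with DESeq2, 285 with no filter on low counts, 3 with the replicate block, and 0 to 63 when 1 library was left out; the cause was not tested. The replicate numbers of the labels mark only a number: same-numbered libraries deviated together at r = 0.05 at 24 months and 0.08 at 2 months. The replicate block called 2802 genes higher in EpdSC and 2592 higher in HFSC at 24 months. The gap between the promoter medians of genes called higher in EpdSC and in HFSC was 0.64, and became 0.54 within 500 bases, 0.58 with a minimum of 50 counts and 0.641 with a pseudocount of 0.1. With 2 libraries per group, 4 residual degrees of freedom limit the precision, and the single ATAC-seq libraries allow no replicate check. Of 1620 counts of list members set against an alternative, 88 moved by over 1.5 times, and 35 of 810 list medians changed sign, among them those of the cornified envelope, ErbB, Notch and cholesterol and fatty acid lists.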
